A study of Mus musculus with 2 samples.

Results

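The genes described here encode the classical families of guidance ligands and their receptors: ephrins and Eph receptors, semaphorins with neuropilins and plexins, Slits with Robo receptors, and netrins with Dcc and the Unc5 receptors. They were chosen by gene symbol among protein-coding genes, not by their measured values, though with earlier results of these data known. By this rule 68 of the 43346 annotated genes in the files were members, 34 ligands and 34 receptors. The tissue was the embryonic facial prominence of mouse strain B6NCrl at 11.5 days, the swellings of neural crest mesenchyme and ectoderm that form the upper face and jaws. Total RNA longer than 200 nt was sequenced from 10 ng of input with spike-ins, in 1 group of 2 libraries. Library 1 came from a pool of 109 healthy embryos of both sexes and library 2 from a pool of 88. No treatment, mutation or second stage was set against these, so levels are described as mean ± SD (n = 2) or as the value in each library, with no test. The labels call the libraries biological replicates and give both the same donor identifier, and the spread is that between these pools.

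Guidance proteins were first known for steering growing axons, and the same proteins also direct neural crest cells, blood vessels and the borders between groups of cells. Ephrins are tied to the membrane of one cell and bind Eph receptor tyrosine kinases on the next, with signals running into both cells. Semaphorins signal through plexins, and most secreted class 3 semaphorins need a neuropilin to reach a plexin. Slits act mainly as repellents through Robo receptors, and netrins attract through Dcc and repel through Unc5 receptors. In the embryonic face, cells with these receptors include neural crest mesenchyme, sensory axons of the trigeminal ganglion and the vessels.

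The libraries held 30849058 and 31600302 expected counts, which are reads assigned to genes with shared reads divided among them, and 28627217 and 29281440 of these lay on annotated genes. Spike-ins took 15.4% and 15.8% of the TPM, the measure of transcript abundance per unit of length scaled to a fixed total in each library. All 10 mesenchyme markers were above 1 TPM in both libraries, led by Col3a1 (378 ± 18.8 TPM), Msx1 (263 ± 20.9 TPM) and Col1a2 (179 ± 11.6 TPM), as were all 10 markers of surface epithelium, led by Epcam, Krt18 and Krt8. Markers of neurons, endothelium, skeletal muscle, forebrain and eye, and erythroid cells were present too, so the dissection held many cell types. The coefficient of variation between the pools over 16002 genes was 9.80%, and their counts differed by far more than sampling noise, with a chi-square of 8.71 per gene.

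Guidance genes were broadly transcribed in the face. The level of 1 TPM, taken as detection where both libraries reach it, was met by 54 of the 68 members (79.4%), against 58.5% of all protein-coding genes. The median member stood at 6.82 TPM, against 3.45 TPM for protein-coding genes, and 37 members reached a mean of 5 TPM and 16 a mean of 20 TPM. Ligands and receptors were alike in total, since the ligands summed to 384 and 375 TPM in library 1 and library 2 and the receptors to 436 and 408 TPM. Together the members made up 0.108% and 0.103% of protein-coding TPM. Assigning reads to genes added little error to the counts, with a posterior SD of the count at or under 1% for 66 of the 68 members. TPM also depends on how reads are divided among the transcripts of a gene, which this SD does not cover. With posterior mean TPM, 26 members moved by more than their own SD between libraries. In bulk tissue, fewer cells of a type and less RNA per cell cannot be told apart, and nothing here says which cells carried a transcript.

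**Figure D1:**
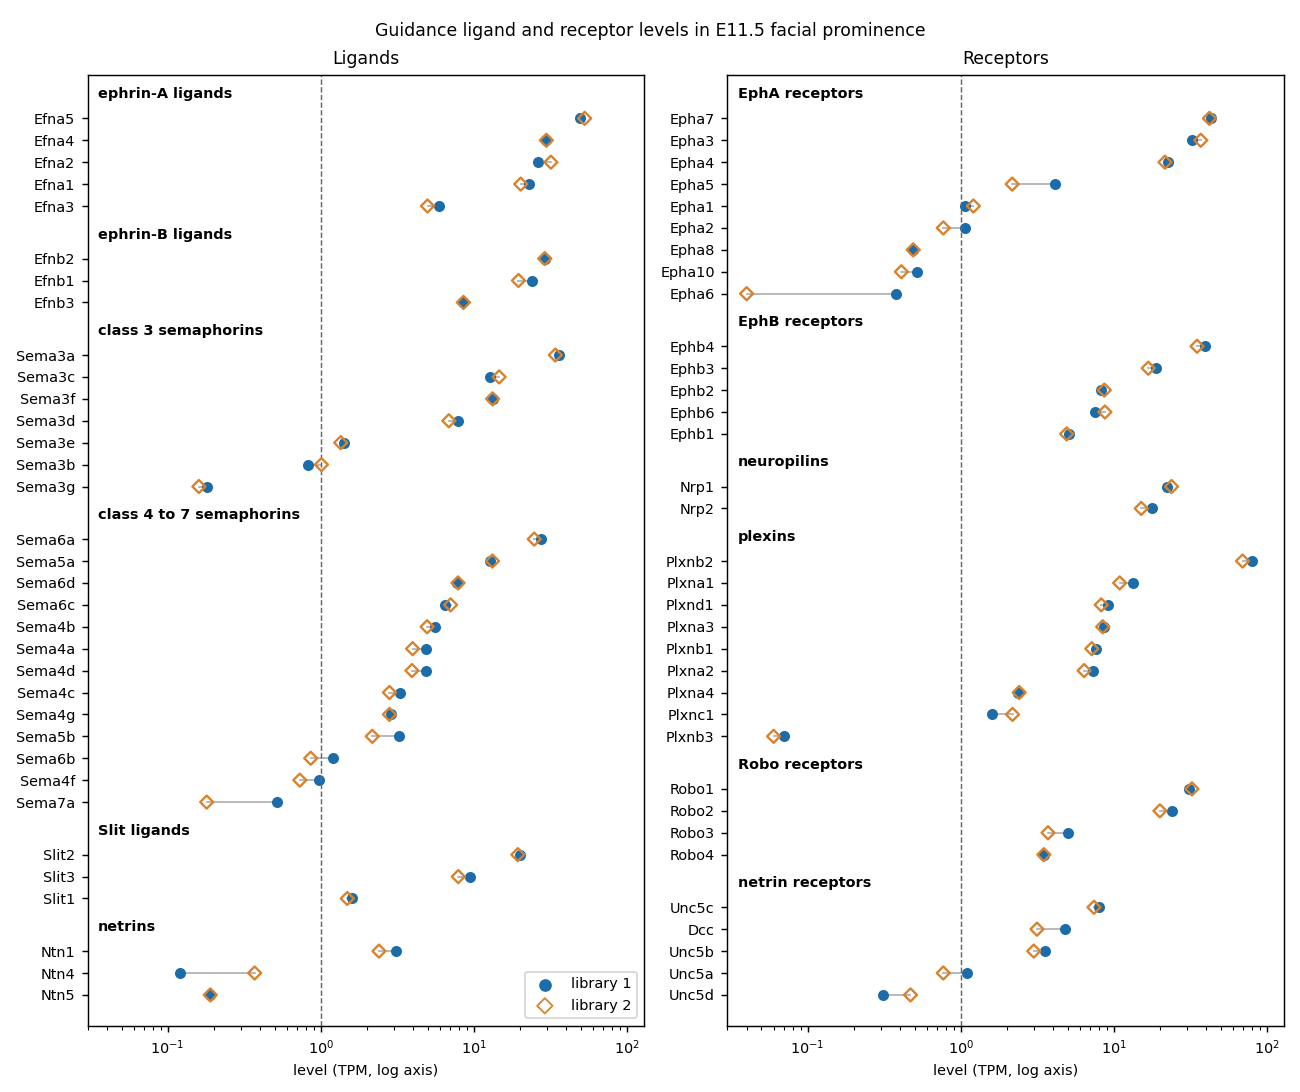
Level of each of the 68 members in TPM on a log axis, by family, with ligands on the left and receptors on the right; filled circles are library 1, open diamonds library 2, and the dashed line marks 1 TPM. Most members sit in nearly the same place in both libraries, with Plxnb2 highest (80.3 and 69.3 TPM), and the widest gaps lie among members near or below 1 TPM such as Epha6 (0.38 and 0.04 TPM).

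The 3 ephrin-B ligands are single-pass membrane proteins whose short cytoplasmic tail carries the reverse signal. Their tails end in a stretch known to bind PDZ domain proteins, so the ends of their coding sequences are shown here, taken from GENCODE M21 on GRCm38. The last 99 nt of each are given 5′ to 3′ on the coding strand, with capitals for the last 4 codons, which encode the PDZ-binding end, and the stop codon.
Efnb1: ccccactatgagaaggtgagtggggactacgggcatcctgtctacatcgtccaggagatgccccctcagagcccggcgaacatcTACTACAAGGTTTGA
Efnb2: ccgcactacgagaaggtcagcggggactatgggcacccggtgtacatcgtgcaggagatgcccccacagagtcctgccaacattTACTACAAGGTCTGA
Efnb3: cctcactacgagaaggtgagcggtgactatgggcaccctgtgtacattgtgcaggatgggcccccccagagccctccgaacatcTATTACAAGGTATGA
The genes lie at chrX:99136130-99148991 on the plus strand (Efnb1), chr8:8617434-8661242 on the minus strand (Efnb2) and chr11:69554092-69560205 on the minus strand (Efnb3).
Over these 99 nt Efnb1 and Efnb2 were identical at 84.8% of positions, Efnb1 and Efnb3 at 82.8%, and Efnb2 and Efnb3 at 84.8%. Over the whole coding sequence the identities were lower, at 62.7%, 56.3% and 57.3%. The longest run of identical bases at matching positions was 14 nt for Efnb1 and Efnb2 and for Efnb2 and Efnb3, and 11 nt for Efnb1 and Efnb3.

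All 3 ephrin-B genes were detected. Efnb2, the ligand known for marking arteries and for its action on EphB4, stood at 28.98 TPM in library 1 and 29.02 TPM in library 2. Efnb1, the X-linked ligand whose loss causes craniofrontonasal syndrome in humans, was at 23.9 TPM in library 1 and 19.6 TPM in library 2. Efnb3, known as a midline repellent of the spinal cord, was lowest at 8.49 and 8.54 TPM. The order Efnb2, Efnb1, Efnb3 held in each library with no overlap between neighbours.

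The ephrin-A ligands, which are held on the membrane by a lipid anchor, gave the largest ligand family sum, 137 ± 4.09 TPM. Efna5, a repellent ligand best known from the mapping of retinal axons, was the highest ligand of all, with 49.3 TPM in library 1 and 52.9 TPM in library 2. Efna4 was at 29.6 and 29.7 TPM and Efna2 at 26.2 and 31.8 TPM, and the values of this pair overlapped between libraries. Efna1, a ligand of EphA2 in epithelia and vessels, followed at 22.8 and 20.2 TPM, and Efna3 was lowest at 5.96 and 4.98 TPM. All 5 ephrin-A genes thus passed 5 TPM on average. Efna1, Efna3 and Efna4 lie in a row on the same strand of chromosome 3, with gaps of 32.8 kb and 10.4 kb, and the middle gene, Efna3, was 3.94 times lower than Efna1 and 5.42 times lower than Efna4.

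Eph receptors are divided by the ephrin class they prefer, with EphA4 known to accept both. Transcripts of the EphA receptors summed to 106 TPM in each library, and 3 genes held nearly all of it. Epha7 was at 43.0 TPM in library 1 and 42.1 TPM in library 2, Epha3 at 32.3 and 37.0 TPM, and Epha4 at 22.7 and 21.6 TPM. These 3 did not overlap in either library, whereas the other 6 members of the class were all far lower. Epha5 had a mean of 3.15 TPM and Epha1 one of 1.14 TPM, while Epha2 was above 1 TPM in library 1 (1.07 TPM) and below it in library 2 (0.77 TPM). Epha8, Epha10 and Epha6 were below 1 TPM in both libraries, with means of 0.49, 0.465 and 0.21 TPM. The value of Epha6 rested on 27 counts in library 1 and 1 count in library 2. Epha1 overlaps Zyx on the opposite strand, which stood at 48.0 TPM. The posterior SD of the Epha1 count was at most 1.21% of the count, so assigning reads to genes added little error to it. No source used here gives the strandedness of the libraries, and any other effect of strand was not tested, so the level of Epha1 is uncertain.

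Among the EphB receptors, all 5 were detected and Ephb4 led. Ephb4, the receptor of veins that answers ephrin-B2, was at 39.7 TPM in library 1 and 34.96 TPM in library 2. Ephb3 was at 18.7 and 16.8 TPM, and both it and Ephb2 are receptors of ephrin-B1 known from palate development in the mouse. Ephb2 (8.19 and 8.67 TPM) and Ephb6 (7.55 and 8.75 TPM) overlapped between libraries. Ephb1 was lowest at 5.07 and 4.92 TPM, with Ephb6 at 1.63 times its level. Ephb2 lies 93.4 kb from Epha8 on chromosome 4, on the same strand, with a level 17.2 times that of its neighbour.

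EphB6 is known to lack kinase activity, so the Eph coding sequences were compared at the catalytic loop, the short stretch where active kinases carry an aspartate. A search of the Eph coding sequences by alignment over a window of 20 codons found the loop in all 14 Eph genes, and 12 of these had an aspartate codon at the catalytic position. Ephb6 and Epha10 had the loop without the aspartate codon. The complete coding form of Epha10, Epha10-201 with 879 nt, held no match, and the loop was found in Epha10-202, whose annotated coding sequence of 2588 nt is incomplete. The loop of Ephb6 is shown beside those of Ephb4 and Epha7, the highest receptor of each class by TPM over all transcripts, from GENCODE M21, 5′ to 3′ on the coding strand, with the codon at the catalytic position in capitals.
Ephb4: caccgaGACctggctgctcggaac
Epha7: cacaggGACcttgcagcgcgcaac
Ephb6: caccgaGCActctcggcccgaagt
All 3 genes are on the plus strand, Ephb4 at chr5:137350109-137378669, Epha7 at chr4:28813131-28967499 and Ephb6 at chr6:41605482-41620509.
Ephb6 was at 8.15 ± 0.849 TPM of an EphB sum of 76.6 ± 3.61 TPM. Its form with the loop, Ephb6-201, was at 5.31 TPM in library 1 and 5.43 TPM in library 2. The rest came from Ephb6-203, a short coding transcript of 459 nt, with 29.7% and 37.98% of the TPM of the gene. That transcript held only 3.99% and 5.68% of the counts of the gene, at 16.55 and 24.98 expected counts.

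The class 3 semaphorins are secreted, and 5 of 7 were detected. Sema3a, the best known repellent of sensory and sympathetic axons, was highest with 35.8 TPM in library 1 and 34.0 TPM in library 2. Sema3c, which acts on cardiac neural crest and vessels, was at 12.8 and 14.6 TPM and overlapped with Sema3f (13.2 TPM in both libraries), a ligand of neuropilin-2. Sema3d was at 7.91 and 6.86 TPM, and Sema3e, which binds plexin-D1 without a neuropilin, had a mean of 1.39 TPM. Sema3b was split around the detection level at 0.83 and 1.01 TPM, and Sema3g was at 0.17 TPM on average. Sema3a alone made up 48.7% of the class. Sema3b and Sema3f lie 72.3 kb apart on the same strand of chromosome 9, where Sema3f was 14.4 times higher.

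The remaining semaphorins are bound to the membrane, and 10 of 13 were detected. Sema6a, a transmembrane ligand of plexin-A2 and plexin-A4 in axons and migrating neurons, was highest with 27.6 TPM in library 1 and 24.8 TPM in library 2. Sema5a, which has both attractive and repellent roles, was at 12.8 and 13.2 TPM. Sema6d (7.75 and 7.88 TPM), Sema6c (6.46 and 7.04 TPM) and Sema4b (5.59 and 4.95 TPM) followed, each apart from the next in both libraries. Sema4a, Sema4d, Sema4c, Sema4g, Sema5b and Sema6b lay between 1 and 5 TPM, with means of 4.42, 4.40, 3.06, 2.84, 2.71 and 1.03 TPM. Sema6b was below 1 TPM in library 2, and Sema4f and the lipid-anchored Sema7a, with 0.85 and 0.35 TPM on average, were below it in both. Class 4 members are known from immune cells and osteoclasts as well as neurons, and none of them reached the level of Sema6a or Sema5a.

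Both neuropilins, the binding subunits for class 3 semaphorins and for VEGF, were well above the detection level. Nrp1 was at 22.2 TPM in library 1 and 23.8 TPM in library 2, and Nrp2 at 17.8 and 15.1 TPM, with no overlap between them. Nrp2 occurs in forms that differ in the membrane-spanning and cytoplasmic end. In the deposited transcript values, 4 transcripts that share the Nrp2a coding end took 64.3 ± 5.87% of the TPM of the gene and 2 with the Nrp2b end took 30.3 ± 3.56%, so both ends were present.

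Plexins are the signalling receptors for semaphorins, and 8 of 9 were detected. Plxnb2, a receptor for class 4 semaphorins with roles in neural tube closure, had the highest TPM of any member, 80.3 in library 1 and 69.3 in library 2, and took 60.9% of the plexin sum. Plxna1, the partner of neuropilins for Sema3a, was at 13.4 and 10.9 TPM. Plxnd1, the endothelial receptor for Sema3e, was at 9.13 and 8.28 TPM and overlapped with Plxna3 at 8.59 and 8.46 TPM. Plxnb1 (7.65 and 7.18 TPM) and Plxna2 (7.36 and 6.40 TPM) overlapped too. Plxna4 and Plxnc1 had means of 2.40 and 1.89 TPM. Plxnb3 was near 0 with 0.07 and 0.06 TPM, on 6 and 7 counts.

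Slit ligands and their Robo receptors were all detected, and the receptors were higher. Slit2 was at 20.0 TPM in library 1 and 19.4 TPM in library 2, Slit3 at 9.46 and 7.91 TPM, and Slit1 had a mean of 1.54 TPM, so Slit2 held 65.8% of the ligand sum. Robo1, a receptor for Slits in axons and mesenchyme, was at 30.8 and 32.4 TPM and had the highest count of any member, 4715 and 5041. Robo2 was at 23.9 and 20.0 TPM. Robo3, the divergent receptor of commissural axons, had a mean of 4.38 TPM and Robo4, the endothelial receptor, one of 3.50 TPM. The genes of this last pair lie on opposite strands of chromosome 9 with 0.554 kb between their 3′ ends, and their levels differed only 1.25-fold.

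Netrins were the lowest ligand family. Ntn1, the secreted netrin that attracts through Dcc, was detected at 3.10 and 2.40 TPM, and Ntn4 and Ntn5 were below 1 TPM in both libraries, with 0.12 and 0.37 TPM for Ntn4 and 0.19 TPM in both for Ntn5. Ntn3 was no member by the naming rule, because its gene identifier in the files is absent from GENCODE M21, and by its transcript identifier it was at 4.76 and 3.76 TPM. Of the receptors, Unc5c was highest at 8.06 and 7.42 TPM, Dcc had a mean of 3.99 TPM and Unc5b one of 3.27 TPM, and these last 2 overlapped. Unc5a was above 1 TPM only in library 1 (1.10 and 0.77 TPM), and Unc5d was below it in both, with a mean of 0.39 TPM. Neo1, a receptor for netrins and RGM proteins that is related to Dcc, was at 24.8 ± 0.742 TPM, so the Dcc relative stood far above Dcc.

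The balance of ligand to receptor transcripts differed between families. Ephrin-A ligands summed to 1.29 ± 0.0385 times the EphA receptors, and class 3 semaphorins to 1.82 ± 0.0177 times the neuropilins. Ephrin-B ligands summed to 0.773 ± 0.00242 times the EphB receptors, Slits to 0.487 ± 0.00591 times the Robo receptors and netrins to 0.196 ± 0.00617 times Dcc and the Unc5 receptors. The netrin sum leaves out Ntn3, with which the ratio was 0.456 ± 0.00298. All semaphorins together summed to 1.23 ± 0.0640 times the plexins. Each of these 6 ratios was on the same side of 1 in both libraries. These are ratios of transcripts per length, and protein amounts were not measured.

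In 35 textbook ligand and receptor pairs, both partners were detected in 31, both reached a mean of 5 TPM in 22 and both a mean of 20 TPM in 6. The 6 pairs highest on both sides were Efnb2 with Ephb4, Efnb2 with Epha4, Efna5 with Epha3, Epha4 and Epha7, and Sema3a with Nrp1. Among these, Efnb2 stood at 0.780 ± 0.0703 times Ephb4, Efna5 at 1.20 ± 0.0769 times Epha7, and Sema3a at 1.52 ± 0.131 times Nrp1. Slit2 stood at 0.902 ± 0.0922 times Robo2 and 0.624 ± 0.0360 times Robo1. Over coding transcripts alone these ratios were 0.781 ± 0.0704 for Efnb2 to Ephb4, 1.89 ± 0.121 for Efna5 to Epha7, 1.52 ± 0.131 for Sema3a to Nrp1, 0.6998 ± 0.132 for Slit2 to Robo2 and 0.334 ± 0.0195 for Slit2 to Robo1. Of the 35 pairs, 10 moved by more than 1.5-fold on that basis, and 1 crossed a ratio of 1, Sema3c with Plxnd1, from 1.58 ± 0.259 to 0.863 ± 0.0894. The widest gaps over all transcripts had a low partner. Plxnb2 was 24.5 ± 0.295 times its ligand Sema4c over all transcripts and 12.5 ± 4.44 times over coding transcripts alone. Efna1 was 23.8 ± 3.50 times Epha2, and Robo1 was 20.5 ± 1.66 times Slit1. Robo2 was 14.2 ± 1.13 times Slit1. Sema6a was 10.9 ± 0.927 times Plxna4 over all transcripts and 6.22 ± 1.00 times over coding transcripts alone. Plxnc1 was 7.58 ± 6.40 times Sema7a and Ntn1 was 7.55 ± 3.46 times Unc5d, each with the lower partner below detection. Plxnd1 was 6.28 ± 0.209 times Sema3e. Less far apart, Sema6a was 3.81 ± 0.0871 times Plxna2, or 2.28 ± 0.166 times over coding transcripts alone. Ntn1 was at 0.702 ± 0.0849 times Dcc, 0.838 ± 0.0535 times Unc5b and 0.354 ± 0.0433 times Unc5c. The 4 pairs with a partner that was not detected were Efna1 with Epha2, Sema7a with Plxnc1, and Ntn1 with Unc5a and Unc5d.

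**Figure D2:**
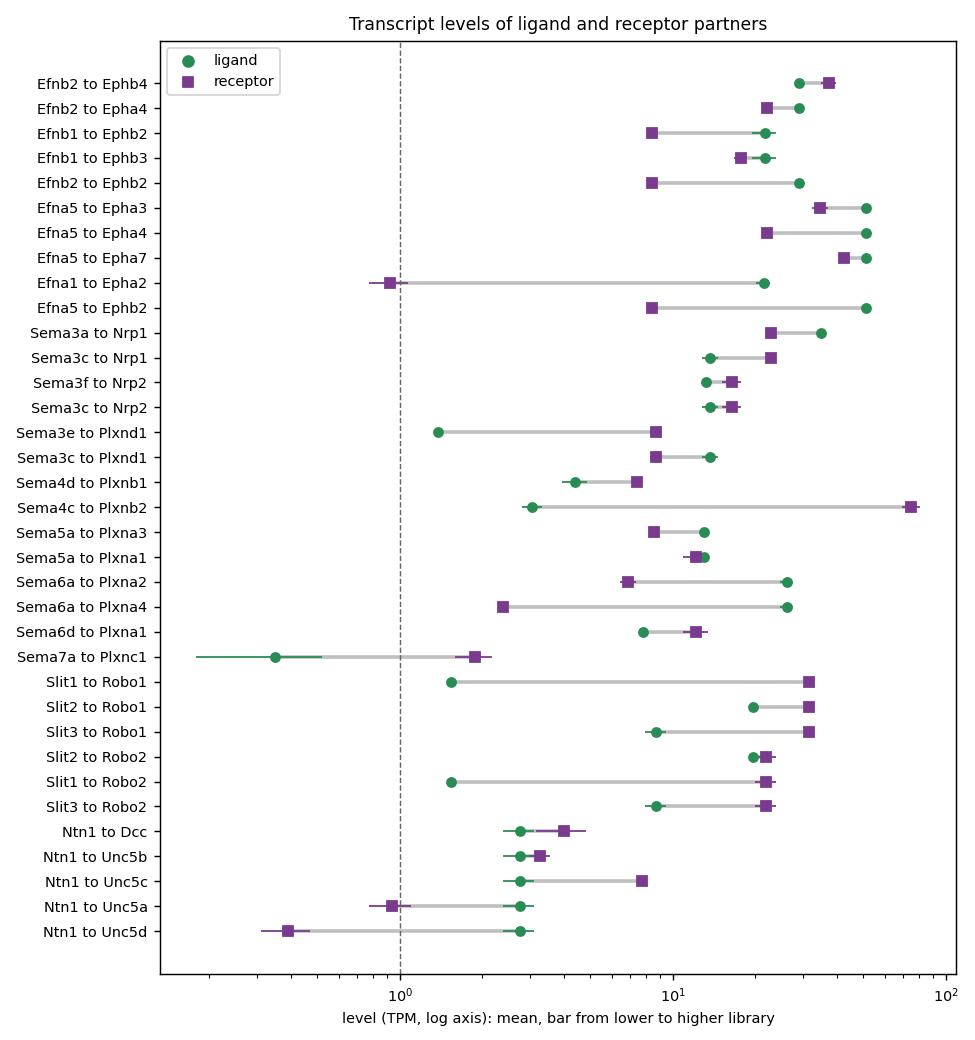
Mean TPM of the ligand (circle) and the receptor (square) of 35 known pairs on a log axis, with coloured bars from the lower to the higher library, grey lines that join partners and a dashed line at 1 TPM. The 6 pairs with both partners at 20 TPM or more lie to the right, and Sema4c and Plxnb2 lie 24.5-fold apart, or 12.5-fold over coding transcripts alone.

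Several high levels came in large part from transcripts other than full-length coding ones. This was seen in the deposited transcript values of the 37 members at 5 TPM or more. In 34 of these the leading transcript was protein-coding in both libraries, and full-length coding transcripts, those with at least 90% of the longest coding sequence of the gene, held a median of 94.1% of the TPM. They held at least 90% in 22 members and under 50% in 5, which were Plxnb2, Robo2, Sema6c, Epha7 and Plxna3. The files listed 191 transcripts for the 37 members, 88 of them of a type other than protein-coding and 50 of these with a retained intron.

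Plxnb2 was the clearest case. Plxnb2-205, a processed transcript of 841 nt, took 55.9% of the TPM in library 1 and 59.6% in library 2, but 14.8% and 15.6% of the counts, whereas the coding Plxnb2-202 of 6377 nt took 37.5% and 36.7% of the TPM and 83.8% and 81.4% of the counts. TPM divides counts by length, so a short transcript with few reads weighs heavily in it. With coding transcripts alone, Plxnb2 stood at 28.2 ± 2.76 TPM and moved from rank 1 to rank 9 among the members, and Efna5 took rank 1. Epha7 moved from rank 3 to rank 10, with 27.0 ± 0.389 TPM.

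In Robo2 the leading transcript was a retained-intron form, Robo2-209, with 26.8% and 25.97% of the TPM. In Sema6c it was the coding Sema6c-201 in library 1 (41.1%) and Sema6c-212, annotated for nonsense-mediated decay, in library 2 (35.5%). Ephb2 also changed its leading transcript, from Ephb2-202 with 47.9% in library 1 to Ephb2-201 with 60.9% in library 2, with coding sequences of 2961 and 2964 nt. The leading transcript held under 50% in at least 1 library in 9 members, which were Epha7, Ephb2, Nrp2, Plxna3, Robo2, Sema6a, Sema6c, Sema6d and Slit2. Slit2 had a retained-intron transcript, Slit2-207, with 30.3% and 32.9% of its TPM, and Slit3 a processed transcript of 459 nt, Slit3-204, with 30.4% and 35.9% of the TPM but 3.26% and 3.91% of the counts.

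**Figure D3:**
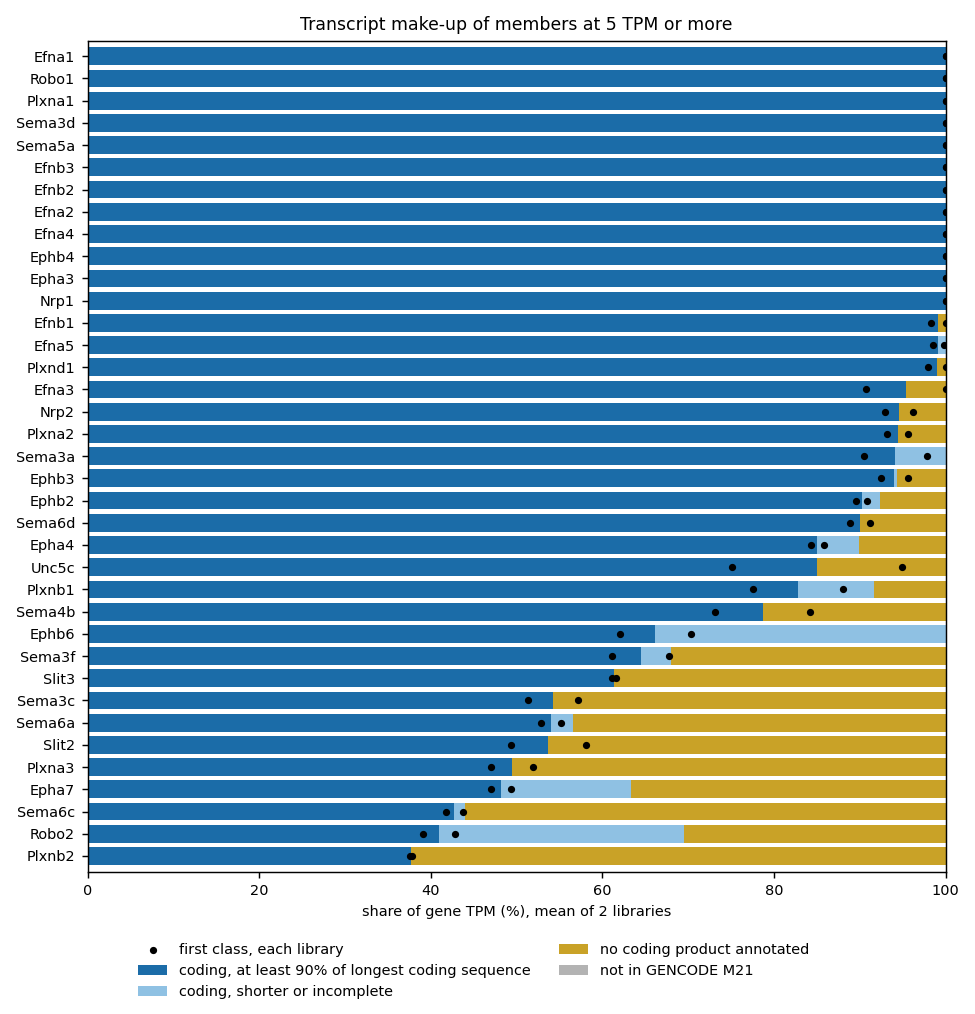
Share of each gene's TPM in percent, as the mean of 2 libraries, for the 37 members at 5 TPM or more. It is split into full-length coding transcripts, shorter coding transcripts and transcripts of a type other than protein-coding. The last class is drawn as having no coding product, but it includes transcripts annotated for nonsense-mediated decay, such as Sema6c-212. Black points give the full-length share in each library. The bars at the top are filled by full-length coding transcripts, while Plxnb2 at the bottom reaches 37.7%.

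Epha7 has shorter coding forms, known in the mouse as truncated receptors without the kinase. The full-length coding transcripts, of up to 2997 nt of coding sequence, took 47.0% of the TPM of Epha7 in library 1 and 49.3% in library 2. The 2 shorter forms, Epha7-202 with 1833 nt and Epha7-204 with 1881 nt, took 16.3% and 14.1% of the TPM and 10.3% and 8.59% of the counts, and 4 non-coding transcripts took 36.7% and 36.6% of the TPM. Neither shorter form holds the catalytic loop. Epha7-202 shares the first 1798 nt of coding sequence with Epha7-201 and then has 35 nt of its own, whereas the loop codon of the full form lies at 2272 nt. The sequences are shown around that point on chromosome 4, from position 1769 to 1833 of each coding sequence, from GENCODE M21, 5′ to 3′, with capitals from where they part.
Epha7-201: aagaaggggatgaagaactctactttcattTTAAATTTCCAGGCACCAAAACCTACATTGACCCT
Epha7-202: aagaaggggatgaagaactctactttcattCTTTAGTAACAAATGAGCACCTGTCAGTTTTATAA
The summed level of the 2 truncated forms was 7.03 and 5.93 TPM, against 20.2 and 20.8 TPM for the full-length forms.

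Most member ratios between the pools were small, as were those of protein-coding genes. Ratios were taken from counts scaled by TMM with an exact 95% interval that covers counting error only, for the 55 members with at least 50 counts and a mean of 1 TPM. Of these, 2 differed at least 1.5-fold, Epha5 and Dcc, both lower in library 2, where 3.77% of 12718 protein-coding genes did so, 2.37% lower and 1.39% higher in library 2. The interval excluded 1 for 30 members, 21 lower and 9 higher in library 2, against 44.4% of protein-coding genes, 20.0% lower and 24.5% higher. The median log2 ratio of library 2 to library 1 was -0.046 for members and 0.0065 for protein-coding genes. The middle 50% of members lay between -0.19 and 0.057, and that of protein-coding genes between -0.12 and 0.12. A spread of 9.80% between pools corresponds to an SD of 0.20 on this log2 scale, and 35 of the 55 members, among them 14 of the 30 whose interval excluded 1, lay within it.

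Among the 8 largest ratios, 5 were of members lower in library 2. Epha5, a receptor of forebrain and retinal axons, had 334 counts in library 1 and 190 in library 2, and was 1.75-fold higher in library 1 (95% interval 1.46 to 2.11). Dcc had 495 and 329 counts and was 1.502-fold higher (1.304 to 1.73). Sema5b was 1.42-fold higher (1.16 to 1.75), Robo3 1.39-fold (1.195 to 1.62) and Sema6b 1.38-fold, with an interval of 0.993 to 1.93 that includes 1. Each of these 5 was also lower in library 2 by TPM. Epha5 and Sema5b each overlap a processed pseudogene on the opposite strand, at 1.45 and 1.24 TPM. The posterior SD of their counts was 0, so no reads were divided between them and another gene in the files. Any other effect of strand was not tested.

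The 3 members with the largest ratio the other way were Slit1, Plxnc1 and Efna2. Efna2 had 1091 and 1350 counts and was 1.24-fold higher in library 2 (1.14 to 1.34), and Plxnc1 was 1.25-fold higher (1.05 to 1.496). Slit1 was 1.36-fold higher by counts (1.07 to 1.73) but not by TPM, at 1.59 TPM in library 1 and 1.49 TPM in library 2. Its shorter coding transcripts took 38.6% of its TPM in library 1 and 2.68% in library 2. Ephb2 and Slit2 also had an interval that excluded 1 and the opposite direction by TPM, so the direction of these 3 genes depends on the measure.

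Markers of other cell types differed between the pools as well. The neuron list summed to 740 TPM in library 1 and 612 TPM in library 2, with 9 of 10 markers lower in library 2 by an interval that excludes 1 and none higher; its highest were Tubb3, Gap43 and Stmn2. The forebrain and eye list, led by the lens gene Cryaa, Pmel and Pax6, summed to 232 and 77.6 TPM, with 5 of 8 lower and 1 higher. The endothelial list summed to 240 and 208 TPM, with 6 of 10 lower and none higher, led by Egfl7, Plvap and Emcn. The skeletal muscle list went the other way, with 123.25 and 191 TPM and 7 of 8 higher, led by Actc1, Tnnt1 and Mylpf. The mesenchyme list stayed near even at a median log2 ratio of -0.029, with 5 of 10 lower and 3 higher. The surface epithelium list was at -0.064, with 4 of 10 lower and none higher. The erythroid list, led by Hbb-y, Hba-x and Hba-a1, was at -0.11, with 5 of 8 lower and none higher. Among protein-coding genes, 20.0% were lower and 24.5% higher by the interval. No defining marker of neurons or of forebrain and eye was at 0 in either library. Lists lower in library 2 (neuron, endothelium, forebrain and eye, erythroid and surface epithelium) went the same way as Epha5, Dcc, Robo3, Sema5b and Sema6b. The skeletal muscle list went the same way as Efna2 and Plxnc1. The part of these cell types in the result was not tested.

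**Figure D4:**
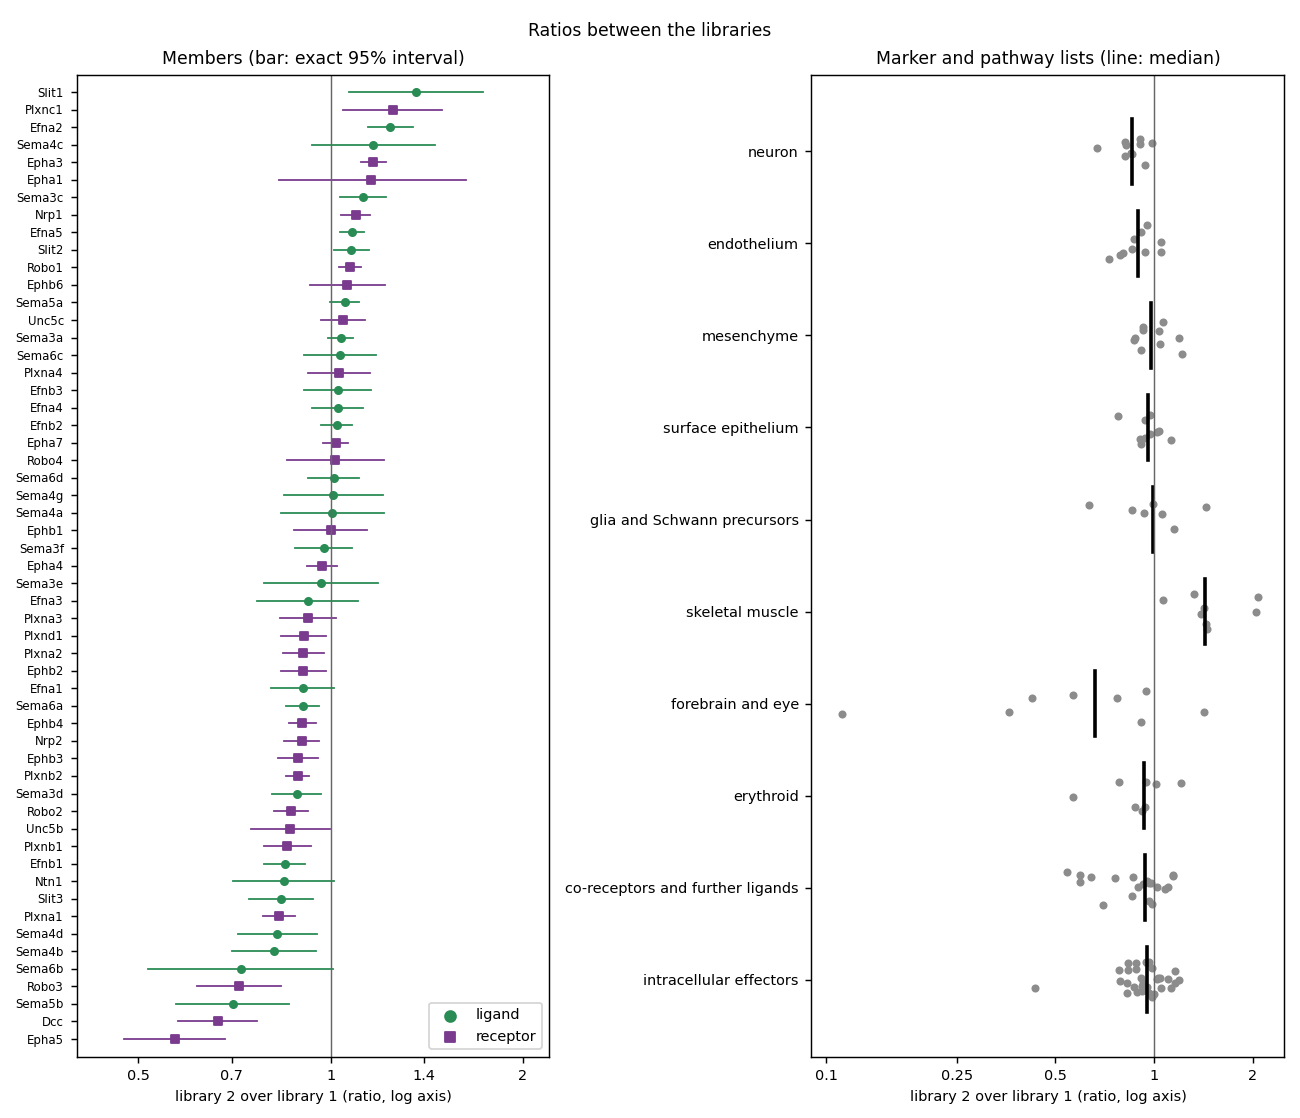
Ratio of library 2 to library 1 on a log axis. On the left are the 55 members with at least 50 counts and 1 TPM, with exact 95% intervals, and on the right the genes of each marker and pathway list with a line at the median; Epha5 and Dcc lie lowest among members, forebrain and eye markers lie low at a median log2 ratio of -0.60 and skeletal muscle markers high at 0.52.

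Genes that work with the members were mostly present. Of 22 co-receptors and further ligands, 19 were detected, and the highest were Itgb1 (184 ± 9.96 TPM), an integrin subunit, Flrt3 (85.9 ± 3.32 TPM) and Flrt2 (41.4 ± 0.537 TPM), which bind Unc5 receptors, and Adam10 (50.3 ± 3.77 TPM), a protease that sheds ephrins. Dscam and Ntng2 were below 1 TPM in both libraries, and Draxin in library 2 alone. In this list 20 genes met the minimum of counts and level for ratios. By the interval 8 of these were lower in library 2 and 3 higher, beside 20.0% and 24.5% of protein-coding genes. Of the lower ones, L1cam, the axonal adhesion molecule that works with Nrp1, was 1.68-fold higher in library 1 (1.48 to 1.91) and Cntn2 1.56-fold (1.41 to 1.72), which were chosen after their values were seen.

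Of 34 intracellular effectors, 32 were detected. The highest were Dpysl2 (366 ± 20.97 TPM), the collapsin response mediator that acts below Sema3a, Gipc1 (128 ± 5.07 TPM), an adaptor of neuropilin-1, Dpysl3 (70.9 ± 8.58 TPM) and Crmp1 (67.0 ± 7.40 TPM). Mical2 and Rnd1 were below 1 TPM in both libraries. For ratios, 32 effectors met the minimum of counts and level. By the interval 13 of these were lower in library 2 and 4 higher, beside 20.0% and 24.5% of protein-coding genes. The median log2 ratio was -0.075, beside -0.046 for the members and 0.0065 for protein-coding genes.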

How the data were processed

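RNA longer than 200 nt from the facial prominences of 2 pools of embryos was sequenced, and the authors quantified each library against GENCODE M4 on mm10, per the deposited notes. The tables have RSEM's columns. The versions of the aligner and quantifier, and the strandedness, are not given in the sources used here. Expected counts were deposited as estimated reads per gene or transcript with no normalization, and TPM was computed by the authors from counts and effective lengths over all entries, spike-ins included, per the file headers. The deposited isoform percentage is, in percent, what a transcript holds of the TPM of its gene. The deposited posterior SD of a gene count, a score in reads, gives the error of assigning reads to that gene.

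Members, lists, pairs and tests were chosen with earlier results of these data known. The marker, co-receptor and effector lists hold 127 entries, with Kdr in both the endothelial and the co-receptor list. Names, types, positions and coding sequences came from GENCODE M21 on GRCm38, the same assembly, matched on identifiers without version, which named 42462 of 43346 genes. Of the 191 transcripts of the members at 5 TPM or more, 158 had the same length in M21 and 1 was not in it. The 26248 entries with numeric identifiers and 97 spike-in and control sequences were not members. Detection means at least 1 TPM in each library.

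Library ratios came from TMM scaling of the expected counts (R 4.3.3 with edgeR 4.0.16), for genes with at least 50 counts over both libraries and a mean of 1 TPM. The exact 95% interval (Clopper-Pearson, on how the counts divide between the libraries) covers counting error only, because without molecular identifiers reads are not independent molecules. Member counts ran from 1 to 5041 per library. The spread between pools comes from edgeR's common dispersion, as its square root, over the 16002 genes kept by filterByExpr, on counts rounded to whole numbers, with an intercept alone. The ratio step was tested on simulated counts with sampling noise alone and 200 changed genes. Those counts held no spread between pools, so the test cannot show how the intervals behave under that spread. Alternatives were other scalings (DESeq2 1.42.0 size factors, total counts), other TPM bases and estimates, thresholds, filters and leaving out each library. Opposite-strand overlaps were taken from the annotation: 30 members overlap a gene on the other strand, and in 7 the partner stood at 25% or more of the member's level (Epha1, Epha5, Epha6, Ntn4, Ntn5, Sema5b and Unc5a).

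The text names each library's value for members at a mean of 5 TPM or more, means between 1 and 5 TPM, members below 1 TPM in both libraries together, the 8 members with the largest ratios, members at 5 TPM or more whose leading transcript is not coding, holds under 50% or changes, the 4 highest genes of the co-receptor and effector lists with those below 1 TPM in both, and the 3 highest of each marker list, except the glial list, which is not reported here. Values of Ntn3, Neo1, Draxin, Chl1, L1cam, Cntn2, Rgma and Flrt1, and of members outside this rule, were added after their values were seen. So were the search of an incomplete coding form of Epha10 and the pair ratios over coding transcripts.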

Additional observations from a re-analysis of the deposited data

How the results depend on the processing

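The level of each member was set against its own SD over the 2 libraries. TPM rescaled to mouse genes alone moved 55 of the 68 members by more than that SD, posterior mean TPM moved 26 and coding transcripts alone moved 24. The rescaling multiplies all genes of a library by the same factor, so it leaves their order and their ratios within a library unchanged. The number of detected members was 54, and 35 at a threshold of 5 TPM, and either library alone gave 55 to 57. The median member stood at 6.82 TPM, at 8.07 TPM with TPM rescaled to mouse genes alone, at 7.09 TPM with posterior mean TPM and at 5.10 TPM with coding transcripts alone, and at 6.63 to 6.91 TPM in either library alone. With coding transcripts alone, the ratio of ligands to receptors was 1.57 for ephrin-A, 0.787 for ephrin-B, 1.58 for class 3 semaphorins and neuropilins, 0.328 for Slit and Robo, 0.212 for netrins and 1.70 for semaphorins and plexins. With posterior mean TPM it was 0.764 for ephrin-B, 1.97 for class 3 semaphorins and neuropilins, 0.530 for Slit and Robo and 1.31 for semaphorins and plexins. Either library alone gave 1.27 to 1.32, 0.771 to 0.774, 1.81 to 1.83, 0.483 to 0.491, 0.191 to 0.200 and 1.18 to 1.27, in the order of the coding ratios above. With Ntn3 added, an alternative chosen after seeing the data, the netrin ratio was 0.456. All 6 family ratios stayed on their side of 1 in each of these. In pair ratios over coding transcripts alone, also chosen after seeing the data, 10 of 35 moved by more than 1.5-fold. The 2 members at 1.5-fold became 6 with no minimum level and 0 at 2-fold, and the log2 ratio of Slit1 turned from 0.44 to -0.094 with the deposited TPM; the cause was not tested. With total counts as scaling the interval of Sema6b excluded 1, and 34 members in place of 30 did so. No interval can be had for the TPM ratio, so that alternative gave no count of intervals. No paired analysis was possible because there is 1 group. Counting error limits members below 1 TPM, such as Epha6 with 27 and 1 counts, and the strandedness limits those overlapped on the other strand.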
